A study of Mus musculus with 8 samples.

Results

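The TNF and TNF receptor superfamily genes were followed through 2 lists of H3K27ac intervals from stimulated mouse CD8+ T cells, 1 list per treatment. The family was taken as every protein-coding RefSeq gene whose symbol begins with Tnfrsf or Tnfsf, together with Tnf, Lta, Ltb, Ltbr, Cd27, Cd70, Cd40, Cd40lg, Fas, Fasl, Ngfr and Eda. That gave 44 genes, 19 for ligands and 25 for receptors, of 21627 protein-coding genes on chromosomes 1 to 19 and X. For each gene the distinct intervals and the bases they cover were counted over the gene body with 20 kb on each side, called its window below.

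The cells were CD8+ T cells of C57BL/6 mice from lymph node and spleen, activated in culture with antibodies to CD3 and CD28. They were kept for 48 h with EnPGC-1, which the labels place among PIPs, or with DMSO, its vehicle. The study has 2 H3K27ac samples per treatment, but each treatment has 1 interval list, so every value is 1 reading per treatment, without a spread over replicates or a test. The labels do not say whether the 2 samples come from separate animals or cultures. Neither the age of the mice nor whether animals were pooled is given in the sources used here.

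Ligands of this family are mostly trimers held on the surface of activated lymphocytes and antigen-presenting cells, and their receptors signal through TRAF adaptors or death domains to NF-kB, MAP kinases or caspases. On CD8+ T cells the best known receptors are costimulators that appear or increase after T cell receptor stimulation, such as OX40, CD137, GITR and CD27. Fas ligand, TRAIL and TNF are effector molecules of T cells. H3K27ac marks active promoters and enhancers.

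Both lists differ in size over the whole genome, and every value below has to be read against that. Covered bases were 4.00 times higher with EnPGC-1, and the lists held 253423 (EnPGC-1) and 81522 (DMSO) intervals. The score of an interval is the deposited value, taken here for −log10 of a q-value, with medians of 2.16 (DMSO) and 3.64 (EnPGC-1). Sequencing depth is unknown here. Marker loci of other cells held intervals too. Windows of 10 T cell genes were covered over 4.33% (DMSO) and 16.7% (EnPGC-1) of their summed length, of Cd8a and Cd8b1 over 1.64% and 10.7%, of 3 CD4 and Treg genes over 4.21% and 23.7%. Those of 6 B cell genes stood at 3.59% and 13.0%, of 6 myeloid genes at 3.74% and 11.4%, and of 3 NK genes, the lowest list, at 0.735% and 2.07%. Single genes carried much of several of these lists. Without Pax5 the other 5 B cell genes stood at 1.15% and 7.64%, and without Spi1 the other 5 myeloid genes at 2.37% and 8.11%. Cd8b1 held 1112 of the 1651 DMSO and 7567 of the 10782 EnPGC-1 bases of the CD8 genes. Klrb1c held 820 of 1119 and 2365 of 3154 bases of the NK genes. Only the B cell and myeloid lists were reduced by a gene. Ms4a1, Itgam and Ncr1 had 0 covered bases with DMSO, and Klra8 had 0 with EnPGC-1. The part of other cells in the values below was not tested.

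The promoters that the results turn on are printed here, as RefSeq gives them on GRCm38.p6 (mm10), from 250 bases before to 50 after the gene start on the gene's own strand. Of the 44 genes, 34 had a start in that table. Capitals mark matches, on either strand, to the kB motif, AP-1 (TGANTCA), the TATA box (TATAAA), the GC box (GGGCGG) and an ETS motif (CCGGAAG). Tnf is shown as a promoter covered in the EnPGC-1 list alone, Ltb and Tnfrsf8 because they carry kB matches, Cd27 as one covered whole in both lists, Tnfrsf4 for its DMSO interval just inside the gene, and Tnfsf18 as one that neither list reached.
Tnf, chr17:35201958-35202257, minus strand: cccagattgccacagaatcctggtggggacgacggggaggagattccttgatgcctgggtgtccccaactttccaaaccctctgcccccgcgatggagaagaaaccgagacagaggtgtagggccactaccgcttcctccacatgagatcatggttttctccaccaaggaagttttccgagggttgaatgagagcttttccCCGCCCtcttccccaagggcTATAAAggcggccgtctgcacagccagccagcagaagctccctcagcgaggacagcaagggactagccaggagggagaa
Ltb, chr17:35194257-35194556, plus strand: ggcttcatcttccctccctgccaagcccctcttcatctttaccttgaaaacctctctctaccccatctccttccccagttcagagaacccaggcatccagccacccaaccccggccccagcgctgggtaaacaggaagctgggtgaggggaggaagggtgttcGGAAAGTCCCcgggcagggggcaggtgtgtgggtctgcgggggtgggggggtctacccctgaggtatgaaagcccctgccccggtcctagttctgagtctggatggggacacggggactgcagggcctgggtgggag
Tnfrsf8, chr4:145315115-145315414, minus strand: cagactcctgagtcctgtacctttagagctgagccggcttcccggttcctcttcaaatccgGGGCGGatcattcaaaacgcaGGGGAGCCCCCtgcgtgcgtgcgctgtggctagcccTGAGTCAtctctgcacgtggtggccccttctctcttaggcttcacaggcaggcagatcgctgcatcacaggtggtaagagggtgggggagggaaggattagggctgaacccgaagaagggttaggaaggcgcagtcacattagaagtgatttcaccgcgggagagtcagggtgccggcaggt
Cd27, chr6:125236978-125237277, minus strand: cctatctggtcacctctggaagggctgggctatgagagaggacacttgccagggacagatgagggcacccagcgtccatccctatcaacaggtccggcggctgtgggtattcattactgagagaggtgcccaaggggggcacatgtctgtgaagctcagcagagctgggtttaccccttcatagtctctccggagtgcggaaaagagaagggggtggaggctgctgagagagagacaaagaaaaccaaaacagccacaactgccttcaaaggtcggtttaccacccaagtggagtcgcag
Tnfrsf4, chr4:156013445-156013744, plus strand: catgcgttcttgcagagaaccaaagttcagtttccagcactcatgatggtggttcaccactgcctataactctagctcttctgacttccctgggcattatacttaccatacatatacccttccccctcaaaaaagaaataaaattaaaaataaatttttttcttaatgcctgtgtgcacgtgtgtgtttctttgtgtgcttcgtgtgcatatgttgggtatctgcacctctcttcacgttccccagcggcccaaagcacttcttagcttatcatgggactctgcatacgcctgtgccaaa
Tnfsf18, chr1:161494407-161494706, plus strand: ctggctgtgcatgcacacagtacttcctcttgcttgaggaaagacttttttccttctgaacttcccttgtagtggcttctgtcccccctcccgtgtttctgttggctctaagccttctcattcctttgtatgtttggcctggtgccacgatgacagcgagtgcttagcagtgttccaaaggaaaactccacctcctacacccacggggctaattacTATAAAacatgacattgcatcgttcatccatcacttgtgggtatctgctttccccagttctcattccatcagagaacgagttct
The Tnf promoter holds a TATA box and, further upstream, a GC box. The EnPGC-1 list covered 165 of its 300 bases and the DMSO list 0. The Ltb promoter holds 1 kB match and was covered whole by the EnPGC-1 list and not at all by the DMSO list. Tnfrsf8, for CD30, holds overlapping kB matches and an AP-1 match, and its promoter was likewise covered over 300 bases with EnPGC-1 and 0 with DMSO. Cd27 and Tnfrsf4 hold no match to the 5 motifs, yet all 300 bases of the Cd27 promoter were covered in both lists and 0 bases of the Tnfrsf4 promoter in either. Over the 38 promoters of these genes, 4 held a kB match (10.5%) against 9.34% of 21044 promoters of all protein-coding genes. Those not printed were covered otherwise. The one of Tnfrsf9 had 0 covered bases in both lists, and the one of Tnfrsf25 had 86 with DMSO and 300 with EnPGC-1. AP-1 matches stood in 7 promoters of 6 genes (18.4% of promoters, all promoters 7.04%), since 2 overlapping promoters of Tnfsf13b share 1 match. There were TATA boxes in 6 (15.8%, 12.7%), GC boxes in 19 (50%, 46.7%) and ETS motifs in 3 (7.89%, 11.7%). Kinds of motif were searched separately, so matches of different kinds may overlap, and a match describes letters, not a bound site.

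The EnPGC-1 list covered more bases than the DMSO list at 42 of the 44 genes, against 93.0% of all protein-coding genes, and the DMSO list covered more at 0, against 1.51%. The other 2, Cd40lg and Tnfsf18, had 0 covered bases in both lists. The count is thus close to that of any gene. An interval of the DMSO list lay in 40 windows (90.9%, all genes 81.1%) and one of the EnPGC-1 list in 42 (95.5%, all genes 94.1%). The median window was covered over 3.03% (DMSO) and 16.0% (EnPGC-1), beside 1.99% and 8.37% for all genes. With overlapping windows joined, the family's 33 regions held 182 DMSO and 471 EnPGC-1 intervals. These covered 97114 and 361424 bases, a ratio of 3.72. A window counted as past the whole-list ratio where its EnPGC-1 bases exceeded 4.00 times its DMSO bases, and 21 of 44 did (47.7%, all genes 48.9%).

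With the EnPGC-1 list reduced to its 81522 highest-scoring intervals, so that both lists had equal numbers, many of these genes no longer had more EnPGC-1 bases. The EnPGC-1 list then covered more at 25 genes (56.8%, all genes 65.9%), the DMSO list at 16 (36.4%, all genes 23.3%), and the summed ratio was 1.59 against 1.65 for the whole lists. That setting drops EnPGC-1 intervals scoring under 4.21, the narrower of those tied at 4.21, and no DMSO interval. Where it turned a gene's direction, its value is given beside the gene.

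**Figure D1:**
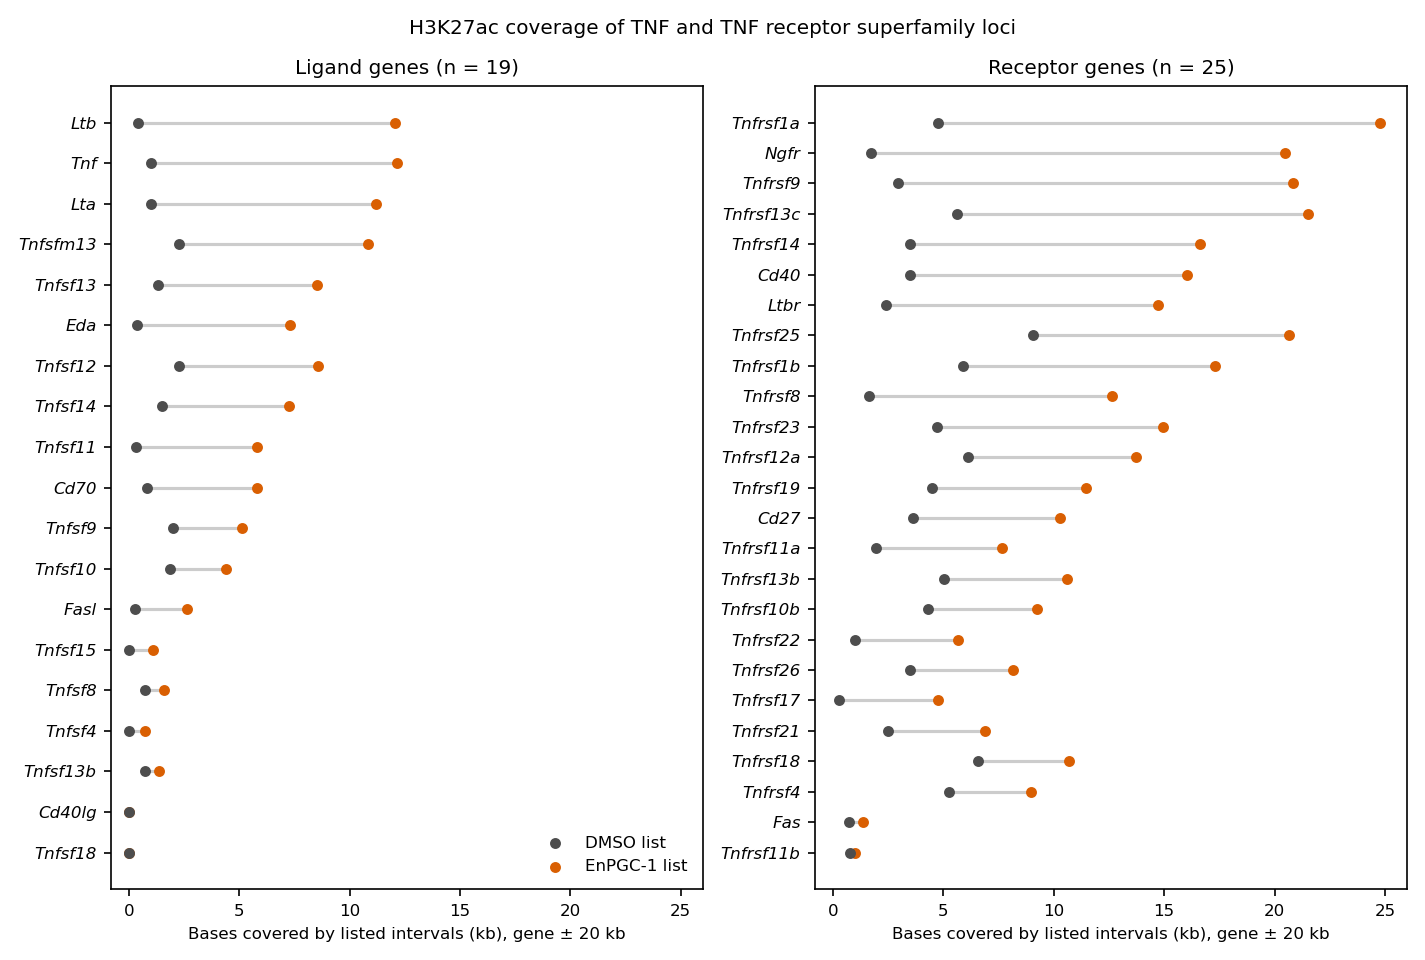
Bases covered by listed H3K27ac intervals over the gene body with 20 kb on each side, in kb on the horizontal axis, for the 19 ligand genes (left) and 25 receptor genes (right). Each gene has 1 grey point (DMSO list) and 1 orange point (EnPGC-1 list), joined by a line, with no error because each treatment has 1 list. Tnfrsf1a reaches 24780 bases in the EnPGC-1 list, and Cd40lg and Tnfsf18 lie at 0 in both.

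Receptor loci were covered more than ligand loci in both lists. The median receptor window was covered over 6.20% (DMSO) and 23.1% (EnPGC-1), the median ligand window over 1.05% and 8.20%. All 25 receptor windows held intervals in both lists, whereas 4 of 19 ligand windows held none in the DMSO list. Windows with a DMSO interval were thus 100% for receptors and 78.9% for ligands, beside 81.1% of all genes. With an EnPGC-1 interval they were 100% and 89.5%, beside 94.1%. Windows past the whole-list ratio were 12 of 19 for ligands (63.2%) and 9 of 25 for receptors (36%), beside 48.9% of all genes. Among those 12, Tnfsf4 and Tnfsf15 had 0 DMSO bases, and Fasl, Tnfsf11, Ltb and Eda each held 1 DMSO interval, so their ratios rest on a single interval or none. Overlapping windows were counted separately here. Ltb, Tnf and Lta share intervals, as do Tnfsf13 and Tnfsfm13, so the 12 are not separate loci. Of the 9 receptors, Ltbr and Tnfrsf1a share intervals as well. These differences between the groups were not tested.

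The genes of TNF and the lymphotoxins held few DMSO intervals and many EnPGC-1 intervals. Ltb, Tnf and Lta lie side by side on chromosome 17, and their joined windows, from 35174507 to 35225578, held 2 DMSO intervals over 999 bases and 22 EnPGC-1 intervals over 14394 bases. The ratio of 14.4 compares with 4.00 for the whole lists. With equal numbers of intervals, 7365 EnPGC-1 bases were left there. The 2 DMSO intervals lay 73 bases inside the Ltb start, from 35194580 to 35195005 (score 1.66), and 18719 bases upstream of Tnf, from 35220726 to 35221298 (score 1.76), and both overlapped an EnPGC-1 interval. At the Tnf start an EnPGC-1 interval ran from 35201673 to 35202122 with a score of 2.68, below the median of its list. Inside Tnf the highest score was 5.80, for an interval from 35200195 to 35200486. At Ltb, which encodes lymphotoxin beta, the start lay in an EnPGC-1 interval of 1601 bases with a score of 6.45. Much of the covered length lay outside the 3 genes, whose bodies held 1437 (Ltb), 630 (Tnf) and 1248 (Lta) EnPGC-1 bases. The windows also take in Aif1, Lst1 and Nfkbil1, and the region's top EnPGC-1 score (9.04) lay in Nfkbil1.

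Of the receptors of these ligands, Tnfrsf1a was covered most, with the second highest share of the 44 windows in the EnPGC-1 list. Tnfrsf1a, the death domain receptor of TNF, had 4756 covered bases in 9 DMSO intervals and 24780 in 29 EnPGC-1 intervals. Its difference of 20024 bases was the highest of the 44 and stood at 11171 with equal numbers of intervals. Inside the gene lay 1258 of the DMSO and 5691 of the EnPGC-1 bases. The window also takes in Scnn1a and Plekhg6. Its highest DMSO score, 4.29, lay in Plekhg6 and its highest EnPGC-1 score, 8.34, in Scnn1a. Tnfrsf1b, the TNF receptor found mainly on leukocytes, had 5906 and 17288 bases, and its highest DMSO score, 5.05, was also the highest of any DMSO interval in these windows. Ltbr, the lymphotoxin beta receptor, had 2413 and 14727 bases. Its start was listed in the EnPGC-1 list alone, under an interval of 2074 bases with a score of 5.30. A DMSO interval of 709 bases overlapped that interval but lay 1066 bases from the start, just past the limit of 1 kb. Ltbr and Tnfrsf1a are neighbours on chromosome 6 with Scnn1a between them, and 3 EnPGC-1 intervals are in both windows. In the DMSO list the start of Tnfrsf1a was marked weakly, by an interval 173 bases away with a score of 1.36.

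**Figure D2:**
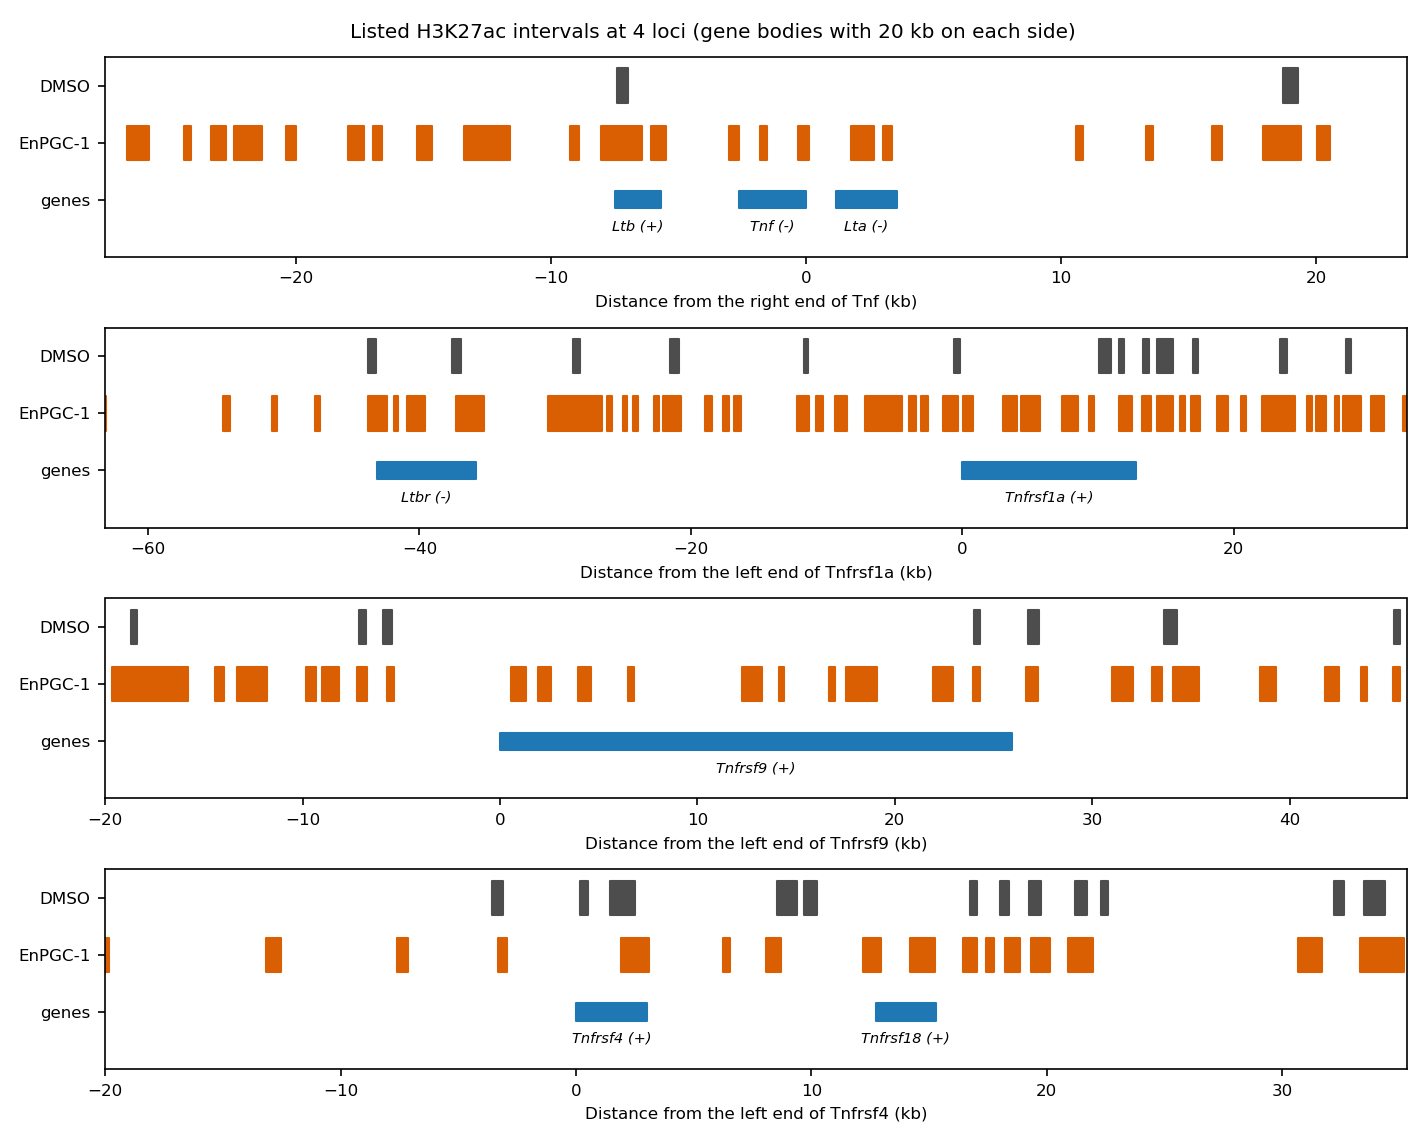
Listed H3K27ac intervals at Ltb, Tnf and Lta, at Ltbr and Tnfrsf1a, at Tnfrsf9, and at Tnfrsf4 and Tnfrsf18, drawn to scale as distance in kb from 1 gene end. Grey bars are DMSO intervals, orange bars EnPGC-1 intervals and blue bars the genes, with their strand. The region of Tnf shows 2 grey against 22 orange bars, that of Tnfrsf4 and Tnfrsf18 shows 12 against 16.

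Of the 8 costimulatory receptors of T cells, Tnfrsf1b included, all had more bases in the EnPGC-1 list (all genes 93.0%), and 3 were past the whole-list ratio (37.5%, all genes 48.9%). Tnfrsf9, which encodes CD137, had 2944 bases in 7 DMSO intervals and 20826 in 25 EnPGC-1 intervals. All 7 DMSO intervals overlapped EnPGC-1 intervals. Inside the gene 291 DMSO and 7014 EnPGC-1 bases were covered, with a score of 9.06 from 150937709 to 150939256 on chromosome 4. Tnfrsf14, for the receptor HVEM, had 3477 and 16613 bases, and Tnfrsf8 had 1621 and 12645. Tnfrsf25, for the death domain receptor DR3, was the family's most covered window in the DMSO list, over 20.3% of its length against 46.3% in the EnPGC-1 list. The share of all genes with a lower DMSO coverage was 99.6%. Of the 9069 DMSO and 20661 EnPGC-1 bases of the Tnfrsf25 window, 546 and 3016 lay inside the gene. The window also holds Plekhg5 and Espn. Cd27, a receptor already present on naive T cells, had 3636 bases (DMSO) and 10273 (EnPGC-1). Its start lay in intervals of both lists with scores of 4.52 and 4.29. With equal numbers of intervals its difference turned to -570 bases.

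At the genes of OX40 and GITR the lists were closer in covered bases. Tnfrsf4 (OX40) and Tnfrsf18 (GITR) are neighbours on chromosome 4, and their joined windows held 12 DMSO and 16 EnPGC-1 intervals, over 6581 and 11817 bases. That ratio of 1.80 was well under the 4.00 of the whole lists. Tnfrsf4 had 5277 and 8972 bases, Tnfrsf18 had 6581 and 10706, and both turned with equal numbers of intervals, to -1755 and -2214. Within the body of Tnfrsf4, 1411 DMSO bases stood against 1089 EnPGC-1 bases. Tnfrsf4 was also the 1 gene of the family (2.27%, all genes 2.95%) whose start was marked in the DMSO list alone, from 156013752 to 156014101 with a score of 2.16. This interval begins 57 bases after the gene start, outside the printed promoter. At Tnfrsf18 the start was marked in the EnPGC-1 list alone, with a score of 2.91. That these windows differ from other windows was not tested.

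The ligands of the costimulators were covered less. Over Tnfsf4, Tnfsf8, Tnfsf9, Tnfsf14, Tnfsf15, Tnfsf18 and Cd70, the median window had 718 covered bases (DMSO) and 1588 (EnPGC-1). For the 8 receptors the medians were 4456.5 and 14629, and without Tnfrsf1b 3636 and 12645. With Tnf, the ligand of Tnfrsf1b, added, the ligand medians were 766.5 and 3348. Tnfsf18, the GITR ligand, was listed at 0 in both lists. Tnfsf4, the OX40 ligand, and Tnfsf15, the DR3 ligand TL1A, were listed at 0 in the DMSO list and had 752 and 1085 EnPGC-1 bases. Tnfsf8, the CD30 ligand, had 718 and 1588 bases, and turned to -718 with equal numbers of intervals and to -135 in the gene body alone. The genes of CD137 ligand, CD70 and LIGHT share 1 stretch of chromosome 17, where Tnfsf9 had 1983 and 5108 bases, Cd70 815 and 5807, and Tnfsf14 1521 and 7253. Cd70 and Tnfsf14 kept 3311 and 4013 of their differences with equal numbers of intervals, while Tnfsf9 turned to -490. Of these ligands, LIGHT and CD70 are known from activated T cells, the others mainly or also from antigen-presenting cells.

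CD40 and its ligand differed widely in coverage. Cd40, a receptor of B cells, dendritic cells and macrophages, had 3472 bases in 6 DMSO intervals and 16056 in 18 EnPGC-1 intervals. Cd40lg, whose product is known mainly from activated CD4+ T cells, was listed at 0 in both lists.

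Genes of the death pathways were covered unequally. Fas, the death receptor of activated lymphocytes, had 2 DMSO and 3 EnPGC-1 intervals, over 733 and 1377 bases, and none within 1 kb of its start. Its difference of 644 bases turned to -62 with equal numbers of intervals or with intervals scoring under their list's median left out. Fasl, the gene of its ligand and a cytotoxic effector of CD8+ T cells, had 1 DMSO interval over 298 bases and 4 EnPGC-1 intervals over 2629 bases. The DMSO interval lay 237 bases inside the start with a score of 2.05. The EnPGC-1 interval there reached the start with a score of 3.32. With equal numbers of intervals no EnPGC-1 base was left in the window (-298). An EnPGC-1 interval of 409 bases, tied at the cutoff score of 4.21, was among those dropped. Tnfsf10, for TRAIL, had 1880 and 4383 bases and turned to -826, and Tnfrsf10b, for its receptor, had 4315 and 9222. Among the 6 death domain receptors, all had more EnPGC-1 bases (all genes 93.0%), and 2, Tnfrsf1a and Ngfr, were past the whole-list ratio (33.3%, all genes 48.9%). Ngfr, a neurotrophin receptor of neurons, had 1739 bases in 4 DMSO intervals and 20480 in 20 EnPGC-1 intervals. Its EnPGC-1 intervals scored at most 5.30, and its difference of 18741 bases was 5130 with equal numbers of intervals. Tnfrsf21, for DR6, had 2485 and 6874 bases and turned to -1258. The decoy receptor genes Tnfrsf22 and Tnfrsf23 had 1014 and 4703 DMSO bases and 5678 and 14953 EnPGC-1 bases, and their neighbour Tnfrsf26 had 3501 and 8139. Inside each of these genes lay 0 DMSO bases, and 2033 (Tnfrsf22), 634 (Tnfrsf23) and 1088 (Tnfrsf26) EnPGC-1 bases. Their windows overlap, and both DMSO intervals of Tnfrsf22 are also counted for Tnfrsf23. The windows also take in Osbpl5 (Tnfrsf23) and Cars (Tnfrsf26). Tnfrsf26 turned to -2071 with equal numbers of intervals and to -1091 at or above the median scores.

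Windows of receptor genes of B cells held intervals of both lists in these T cell samples, as all 25 receptor windows did. Tnfrsf13c, for the BAFF receptor, was the family's most covered window in the EnPGC-1 list, at 50.5% against 13.2% in the DMSO list, yet 692 of its 21513 EnPGC-1 bases and 0 of its 5627 DMSO bases lay inside the gene. The window also holds Srebf2, Shisa8 and Cenpm. With equal numbers of intervals its difference of 15886 bases was 1315. Tnfrsf13b, for TACI, had 5037 and 10613 bases, and its difference was 189 with equal numbers. Tnfrsf17, for the plasma cell receptor BCMA, had 297 bases in 1 DMSO interval, which lay downstream of the gene. In the EnPGC-1 list it had 4752 bases in 8 intervals, and its difference turned to -297. Among the EnPGC-1 intervals dropped there were those of 665 and 847 bases, tied at the cutoff score of 4.21. Of the ligands of these receptors, Tnfsf13 (APRIL) had 1317 and 8502 bases, with a difference of -158 in the gene body alone. Tnfsf13b (BAFF) had 734 and 1359 and turned to -411. Tnfsf13, Tnfsf12 and the joint gene Tnfsfm13 overlap on chromosome 11, so their values are shared. Tnfsf12, for TWEAK, had 2271 and 8584 bases and turned to -1972. Tnfsfm13 had 2271 and 10836. Tnfrsf12a, for the TWEAK receptor, had 6107 and 13708 bases in a window that holds 5 other genes.

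The genes of the RANK system of bone and lymph node differed among themselves. Tnfrsf11a, for RANK, had 1950 and 7655 bases, Tnfsf11, for RANK ligand, had 319 and 5787, and Tnfrsf11b, for the soluble decoy osteoprotegerin, had 763 and 1009. Osteoprotegerin thus had 2 intervals in each list, with a difference of -20 in the gene body alone. The interval at 1 end of the gene, from 54278096 to 54278750, had a score of 7.68 in the EnPGC-1 list and overlapped a DMSO interval with a score of 2.58. With equal numbers of intervals Tnfrsf11a turned to -1258 and Tnfsf11 to -319. Of the developmental genes, Eda, the ectodysplasin gene of the X chromosome, had 384 and 7312 bases over a window of 465155 bases, and Tnfrsf19, for TROY, had 4502 and 11458 and turned to -1815. An interval inside Eda, from 100156571 to 100157008, had the highest score of any in these windows, 11.5, and overlapped no DMSO interval.

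Gene starts of the family were marked in both lists at 21 genes (47.7%, all genes 32.5%), with EnPGC-1 alone at 16 (36.4%, all genes 35.9%) and in neither at 6 (13.6%, all genes 28.6%). A start counted as marked with an interval within 1 kb of it, or of either gene end for the 10 genes without a known start. The 16 were Cd70, Eda, Lta, Ltbr, Tnf, Tnfrsf11a, Tnfrsf13b, Tnfrsf17, Tnfrsf18, Tnfrsf21, Tnfrsf22, Tnfrsf8, Tnfrsf9, Tnfsf10, Tnfsf15 and Tnfsfm13. The 6 unmarked genes were Cd40lg, Fas, Tnfrsf10b, Tnfrsf26, Tnfsf18 and Tnfsf4. With equal numbers of intervals 3 starts were marked with EnPGC-1 alone and 13 with DMSO alone, against 14.9% and 17.9% of all genes.

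Coverage peaked just after the start in both lists. In the first 500 bases of the 34 genes with a known start, 25.1% of bases were covered (DMSO) and 65.5% (EnPGC-1), beside 13.6% and 40.4% for 17273 genes. Further in, at 2 to 5 kb downstream, the values were 2.99% and 18.1%, beside 3.49% and 13.3%. The family's promoters held fewer CpG dinucleotides: the median over the 38 promoters of the family was 8.5 CpG, against 13 over all, and promoters with starts marked in both lists had a median of 9 against 17. Their median GC content was 55.8% against 56.7%.

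**Figure D3:**
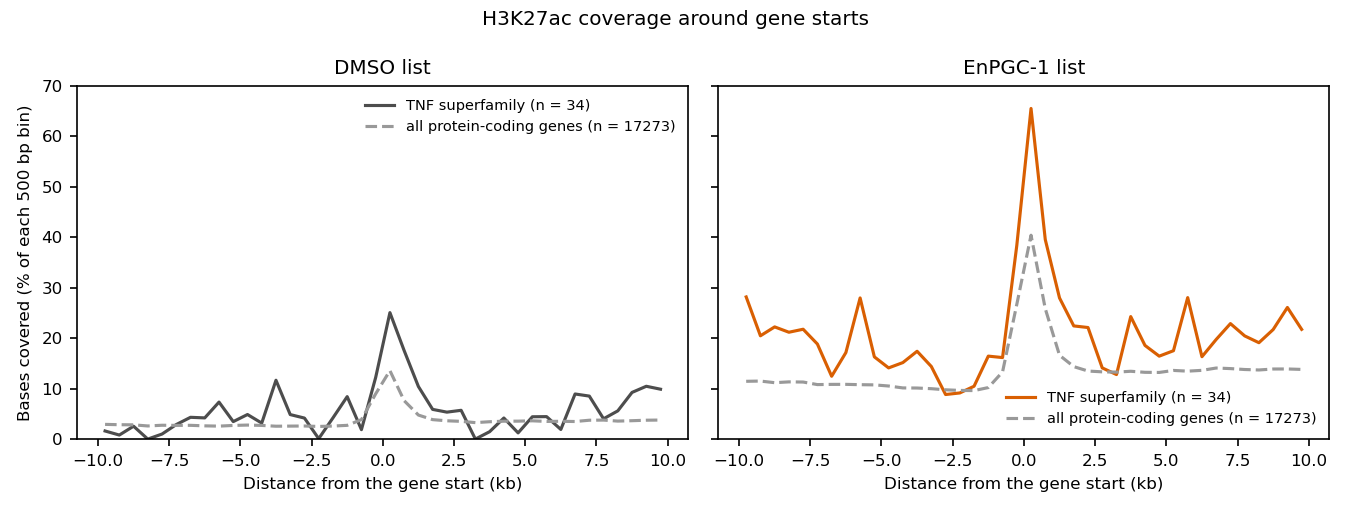
Mean share of bases covered by listed intervals in bins of 500 bp, in percent, against the distance from the gene start in kb, with transcription to the right. Solid lines are the 34 family genes with a known start and dashed lines all 17273 such genes, for the DMSO list (left) and the EnPGC-1 list (right). Both solid lines peak in the bin after the start, at 25.1% and 65.5%.

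Most DMSO intervals of these loci were also in the EnPGC-1 list. Of 182 DMSO intervals, 149 shared 1 bp or more with the other list (81.9%, exact 95% confidence interval 75.5 to 87.2), against 73.7% of the whole DMSO list. Of 471 EnPGC-1 intervals, 142 did so (30.1%, 26 to 34.5), against 23.1% of the whole list. The confidence intervals cover counting error only. The median score of the family's intervals, 2.16 and 3.69, was that of the lists or near it. The highest-scoring DMSO interval of the family, in Tnfrsf1b from 145222246 to 145222693, ranked 1864 in its list, and the highest-scoring EnPGC-1 interval, in Eda, ranked 408. After Tnfrsf1b came DMSO intervals in Tnfrsf13b and just upstream of Cd27, both with a score of 4.74. The second and the third EnPGC-1 intervals lay inside Tnfrsf9 and Tnfrsf19, both with a score of 9.06, and neither overlapped a DMSO interval.

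In counts of genes with more EnPGC-1 bases or past the whole-list ratio, the wider pathway stood near all genes, like the family. Of 47 genes for adaptors, kinases, NF-kB subunits, inhibitors, death effectors and related receptors, 46 had more bases in the EnPGC-1 list (all genes 93.0%) and 23 were past the whole-list ratio (all genes 48.9%). The exception was Rel, the NF-kB subunit gene most tied to lymphocytes, with 1210 bases (DMSO) and 991 (EnPGC-1). None of the 5 NF-kB genes was past the whole-list ratio: Rela had 4350 and 13798 bases, Relb 8268 and 25996, Nfkb1 3846 and 13861, and Nfkb2 10102 and 17553. Nfkb2 turned to -3050 with equal numbers of intervals. Past the ratio were 9 of 16 adaptor genes, 4 of 9 kinase genes, 3 of 6 death genes and 1 of 4 related receptor genes. Of 7 genes for brakes on NF-kB, 6 were past it. With equal numbers of intervals 3 of the 7 had more DMSO bases (all genes 23.3%): Otulin (-4), Cyld (-12) and Tnfaip3 (-404). There were 2074 and 18708 bases at Nfkbie and 1364 and 8056 at Nfkbia, both for inhibitors that hold NF-kB in the cytoplasm. Tnfaip3, for the deubiquitinase A20, had 404 and 2000 bases and turned to -404. Map3k14, for the kinase NIK of the noncanonical pathway, had 4717 and 27640 bases. Traf1, a TRAF gene induced by NF-kB, had 3099 and 14204, and Casp8, the caspase of death receptors, had 648 and 3594. The pathway genes outside the NF-kB group were named after their values were seen.

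**Figure D4:**
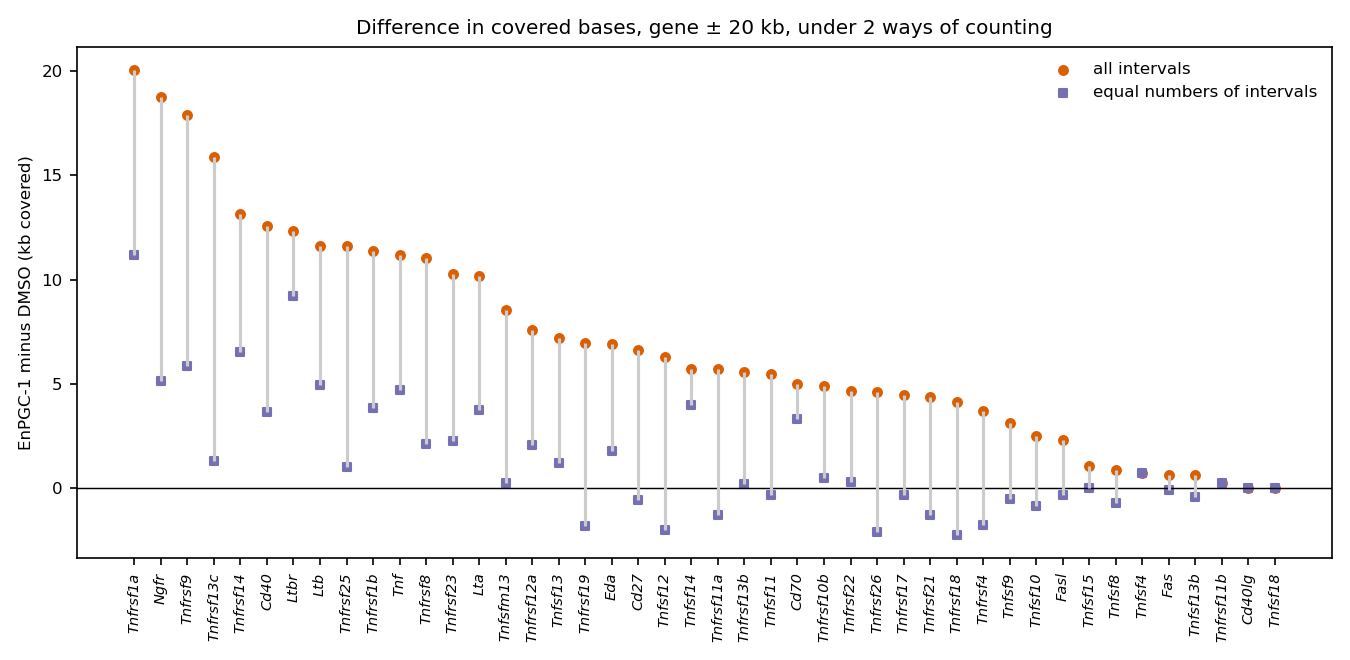
Difference in covered bases (EnPGC-1 list minus DMSO list, in kb) over the gene body with 20 kb on each side, for each of the 44 genes, ordered by the difference with all intervals. Orange circles use all intervals and purple squares equal numbers of intervals per list, joined by a line. With all intervals 42 genes lie above 0 and 2 at 0, and with equal numbers 25 lie above, 16 below and 3 at 0.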

How the data were processed

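ChIP with an H3K27ac antibody (2 samples per treatment), IgG (2 samples, DMSO) and input (1 per treatment) were sequenced. Per the submitters' processing notes, processing used mm10, MACS2 2.2.2.20160309, Bowtie 1.1.2, Trimmomatic 0.38, ChIPseeker 11.16.1 and Picard 0.118. What parameters and control were used, and whether samples were pooled, is not given in the sources used here. The authors deposited 1 list per treatment of chromosome, start, end, name and score, and the deposited score was read as −log10 of a q-value because the lowest were 1.31 in both lists. The coordinates were used as deposited and are printed 1-based.

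Entries repeating 1 interval were combined with their highest score (84538 to 81522 in the DMSO list, 329623 to 253423 in the EnPGC-1 list). Genes and promoters came from RefSeq tables of GRCm38.p6, with genes off chromosomes 1 to 19 and X left out. Counting used Python 3.11.15, numpy 2.4.6 and pandas 2.3.3, and intervals of shares are exact Clopper-Pearson intervals (scipy 1.17.1). The code was tested on simulated lists. Gene starts came from the promoter table, otherwise both gene ends were used.

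The family, the role and marker lists and the pathway list were chosen with earlier results of these data known. Named were the ligand and receptor pairs of T cells, the TNF, B cell and bone groups, the 5 highest and lowest differences, the 5 highest covered shares per list, genes at 0, and the highest-scoring intervals. Beyond them, other members are named for completeness. Alternatives were windows of 0, 5 and 50 kb, scores at or above each list's median, equal numbers of intervals (ties from the widest down), widths of at least 500 bp, merging within 1000 bp, no chromosome X, starts within 500 or 2500 bp, and 50% overlap. Chosen after seeing the data were known starts only, leaving out the Tnf, Lta and Ltb windows, Tnfrsf1b or Tnf moved in or out of the costimulator medians, and marker sums without Pax5 or Spi1.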

Additional observations from a re-analysis of the deposited data

How the results depend on the processing

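No paired analysis was possible because each treatment has 1 interval list and no value per sample. Depth and the threshold of each list limit all counts, and no sample's depth is known here.

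With equal numbers of intervals the summed ratio of covered bases was 1.59 (3.72 with all intervals), 25 genes had more EnPGC-1 bases and 16 more DMSO bases (all genes 65.9% and 23.3%), and starts were marked at 3 genes with EnPGC-1 alone, at 13 with DMSO alone and at 9 in both (all genes 14.9%, 17.9% and 17.5%). Shared intervals were then 36.3% of DMSO and 39.2% of EnPGC-1 intervals, without a share of the whole lists at this setting to set beside them. Differences turned at Tnfrsf11a (-1258), Fasl (-298), Tnfsf12 (-1972), Tnfrsf19 (-1815), Tnfsf11 (-319), Tnfrsf17 (-297), Tnfrsf21 (-1258), Tnfsf9 (-490), Fas (-62), Tnfsf10 (-826), Tnfsf8 (-718), Tnfrsf4 (-1755), Tnfrsf18 (-2214), Cd27 (-570), Tnfrsf26 (-2071) and Tnfsf13b (-411). That setting drops only EnPGC-1 intervals. The turns at Fasl and Tnfrsf17 rest on intervals tied at the cutoff score of 4.21, which were dropped for their width.

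At or above the median scores, 3 genes had more DMSO bases (all genes 5.33%): Fas (-62), Tnfrsf26 (-1091) and Tnfsf13b (-86). Starts were marked at 8 genes in both lists and at 2 in the DMSO list alone (all genes 15.3% and 8.30%), and shared intervals were 62.1% and 23.4%. Within the gene body alone, 4 genes turned (all genes with more DMSO bases 3.73%), Tnfsf13 (-158), Tnfrsf11b (-20), Tnfsf8 (-135) and Tnfrsf4 (-322), with shared intervals of 69.1% and 25.7%. With 5 kb on each side 2 turned (2.83%), Tnfsf8 (-132) and Tnfrsf4 (-32). Among intervals of 500 bp or more, 10 starts were marked in both lists and 0 in the DMSO list alone (all genes 15.4% and 3.08%). Of EnPGC-1 intervals, 23.3% were then shared. After merging within 1000 bp that share was 35.5%. Starts in the DMSO list alone were 2 within 500 bp and 0 within 2500 bp, without a share of all genes at these distances (2.95% within 1 kb). With 50% of the interval covered, 73.1% and 14.4% were shared. The shared percentages under these settings likewise have no share of the whole lists beside them. The causes were not tested. Windows of 50 kb, merging and leaving out chromosome X turned no gene, and without the Tnf, Lta and Ltb windows the summed ratio was 3.61.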

Other observations

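In the EnPGC-1 list, median coverage was higher in windows with more neighbouring genes, while in the DMSO list the family's windows with 3 or more neighbours did not exceed those with 1 to 2. Of the 44 windows, 16 held no other protein-coding gene and had median coverages of 1.46% (DMSO) and 6.55% (EnPGC-1). The 18 windows with 1 to 2 others stood at 5.46% and 16.2%, and the 10 with 3 or more at 4.4% and 25.8%. For all protein-coding genes the medians were 0.710% and 3.05%, 1.92% and 8.20%, and 6.15% and 24.3% in the same classes. Windows past the whole-list ratio were 8 of 16, 8 of 18 and 5 of 10, beside 51.6%, 50.6% and 41.7% of all genes. Ngfr and Cd40 had no other gene in their windows and were covered over 34.8% and 28.7% in the EnPGC-1 list. Fas, Fasl, Tnfsf4, Tnfsf8, Tnfsf15 and Tnfsf18 had none either and were covered over at most 5.50%. The part of neighbouring genes in the differences between lists was not tested.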
